A study of Mus musculus with 8 samples.

Results

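The genes described here are 10 cytokine and death ligand genes that effector T cells can transcribe, of 22180 genes measured. They are Ifng, Tnf, Lta, Ltb, Il2, Il21, Csf1, Csf2, Fasl and Tnfsf10, chosen by name. Each was read from the row of the array table that carries its symbol alone, and for Csf2, which has 2 such rows, from the brighter one. The RNA came from spleen CD8 T cells sorted by flow cytometry on T cell receptor beta and CD8 with high PD-1, little CD127 and at least intermediate CD44, after lineage-positive cells had been gated out. All 8 samples came from female C57BL/6 mice (the strain field reads C56BL/6) carrying a transplant of murine CLL cells from Eµ-TCL1 mice, a B cell leukaemia model of chronic lymphocytic leukaemia (CLL) driven by a transgene. From 3 weeks after transplantation, for 2 weeks, 4 samples came from mice treated with an isotype control antibody and 4 from mice treated with an antibody that blocks the interleukin 10 receptor (anti-IL-10R), and cells were sorted 5 weeks after transplantation. No sample came from a mouse without leukaemia, the mice kept their own immune cells, and the labels do not say whether each array was a separate animal, so the tests measure the spread between these arrays. Mouse ages were not given in the sources used here.

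Effector CD8 T cells act on other cells through secreted cytokines and through ligands on their surface. Interferon gamma signals to neighbouring cells and raises antigen presentation, TNF and the lymphotoxins signal through TNF receptors and the lymphotoxin beta receptor to NF-kappaB, and FASL and TRAIL engage death receptors that activate caspase 8. IL-2 and IL-21 act on lymphocytes through receptors that share the common gamma chain, while M-CSF (Csf1) and GM-CSF (Csf2) act mainly on macrophages and other myeloid cells. Interleukin 10 is an inhibitory cytokine whose receptor signals through STAT3.

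Values are log2 signals, where 1 unit is a 2-fold difference; each gene has its own probes, so levels are compared between arrays and not between genes. A gene whose mean over the 8 arrays lay below 5.24, the median of all rows, is called dim here. Differences are anti-IL-10R minus isotype, with the standard error (SE) of the limma fit, and the threshold was a Benjamini-Hochberg adjusted p below 0.05 over all 22180 genes. That fit called 67 genes higher and 78 lower. The calls split 132 higher and 321 lower after quantile normalization and 32 higher and 64 lower after each array was centred on its median. Isotype replicate 1 stood apart from the other arrays (Pearson's r across the 12019 genes that were not dim, which are not independent replicates, 0.915 to 0.929 with the others), and where leaving it out ends or makes a call among the 10 genes, or turns the sign of a difference among them, both values are given. The genes of the sort were bright on every array for Cd3e (12.23 to 12.61), Cd8a (10.72 to 11.15) and Cd8b1 (11.53 to 12.12). These T cell genes were higher in every anti-IL-10R array than in any isotype array, by 0.27 ± 0.10 (SE) for Cd3e, 0.31 ± 0.10 for Cd8a and 0.30 ± 0.12 for Cd8b1, and none passed. Pdcd1, which encodes PD-1, was 10.34 in isotype replicate 1 and 11.10 to 11.20 in the other isotype arrays, against 11.33 to 11.55 after blockade (difference 0.50 ± 0.18, or 0.30 without isotype replicate 1). Cd44 lay between 6.05 and 6.84, and Il7r, which encodes CD127, was dim (3.08 to 4.47). In a bulk sample, more cells with a transcript and more of it per cell cannot be told apart.

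After IL-10 receptor blockade Csf1, the gene of the macrophage growth factor M-CSF, was higher, and it was 1 of the 10 genes to pass the threshold, where 0.654% of all genes passed (0.302% as higher and 0.352% as lower). Fasl and Ltb were also higher in every anti-IL-10R array than in any isotype array, but missed the threshold. The T cell genes Cd3e, Cd8a and Cd8b1 were apart in the same direction, by 0.27 to 0.31, beside 0.40 for Fasl and 0.60 for Ltb; their part in these differences was not tested. With Csf1, these made 3 of the 10 genes with groups that did not overlap in the upward direction, a pattern that 5.67% of all genes showed; none was separated downward, as 4.65% of all genes were. The other 7 genes, Ifng, Tnf, Lta, Il2, Il21, Csf2 and Tnfsf10, had slightly lower means after blockade with overlapping groups, and none of them passed or had an unadjusted p below 0.05. The median difference of the 10 genes was −0.11, beside −0.02 for all genes. It was −0.03 without anti-IL-10R replicate 1 and −0.07 without isotype replicate 1. A mean of at least 6.97, the 75th percentile of all rows, was reached by 5 of the 10 genes. Their median was 0.40, beside 0.05 for all genes that reached it.

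**Figure D1:**
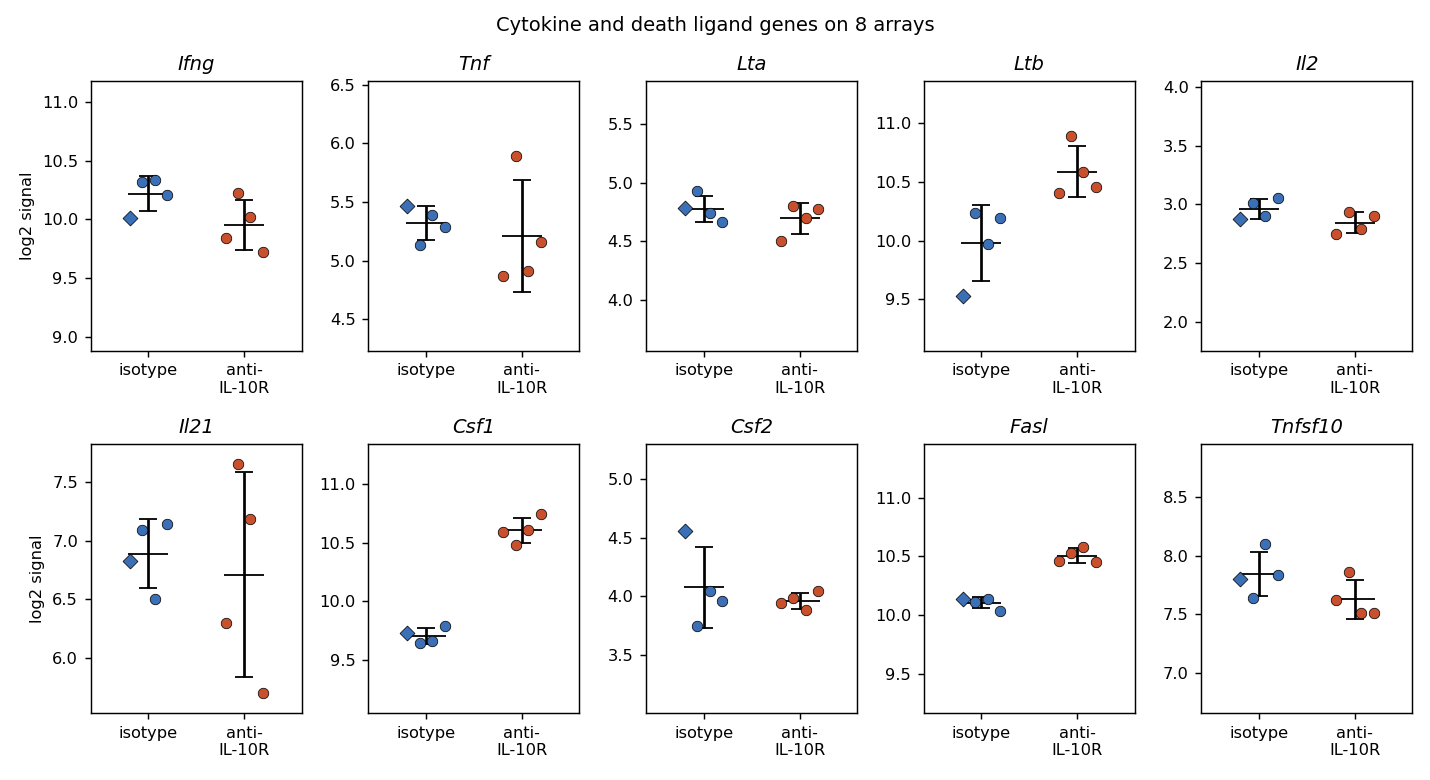
Log2 signal of each cytokine or death ligand gene in the 4 isotype arrays (blue; the diamond is isotype replicate 1) and the 4 anti-IL-10R arrays (orange), with the mean and SD in black. Every panel spans the same number of log2 units; the groups are apart for Csf1, Fasl and Ltb and overlap for the other 7 genes.

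The stretches of 250 bases before the annotated start of Csf1, Ltb and Fasl, the genes whose groups did not overlap, and of Ifng, the bright cytokine whose groups did, are printed 5′ to 3′ from RefSeq (GRCm38.p6), to show which motif letters of T cell activation pathways stand near each start. All 10 genes had an entry. The motifs were searched on both strands: TATAAA (the TATA box), TGANTCA (AP-1), GGAAA (the NFAT core), TTCNNNGAA (STAT), TGCTGAC (MAF) and the NF-kappaB consensus. Capitals mark every match, and the NFAT core can lie within the NF-kappaB consensus.
Csf1, chr3:107760470-107760719, minus strand: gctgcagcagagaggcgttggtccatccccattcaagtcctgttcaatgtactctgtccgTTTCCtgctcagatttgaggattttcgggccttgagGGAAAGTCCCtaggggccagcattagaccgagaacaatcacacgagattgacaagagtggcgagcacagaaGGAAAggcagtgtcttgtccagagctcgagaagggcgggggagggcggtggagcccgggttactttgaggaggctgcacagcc
Ltb, chr17:35194257-35194506, plus strand: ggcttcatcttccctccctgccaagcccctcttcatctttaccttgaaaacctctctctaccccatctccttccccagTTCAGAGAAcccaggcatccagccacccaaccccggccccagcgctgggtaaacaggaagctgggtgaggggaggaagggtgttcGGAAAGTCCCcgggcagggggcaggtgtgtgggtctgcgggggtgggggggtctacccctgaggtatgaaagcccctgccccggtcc
Fasl, chr1:161788496-161788745, minus strand: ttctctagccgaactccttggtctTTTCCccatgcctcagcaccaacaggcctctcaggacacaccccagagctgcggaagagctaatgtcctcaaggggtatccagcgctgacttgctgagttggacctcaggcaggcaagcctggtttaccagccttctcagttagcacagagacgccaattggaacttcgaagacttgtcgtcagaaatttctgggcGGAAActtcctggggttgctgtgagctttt
Ifng, chr10:118440796-118441045, plus strand: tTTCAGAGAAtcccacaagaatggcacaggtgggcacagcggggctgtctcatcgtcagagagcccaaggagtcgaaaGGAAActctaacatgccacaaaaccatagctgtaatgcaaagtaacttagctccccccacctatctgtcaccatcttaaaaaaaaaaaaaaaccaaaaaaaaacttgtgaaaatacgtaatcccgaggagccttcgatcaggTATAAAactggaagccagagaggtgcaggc
Csf1 and Ltb held the same 10 letters, ggaaagtccc, which match the NF-kappaB consensus on the opposite strand, with the NFAT core inside, from base −154 to −145 in Csf1 and −87 to −78 in Ltb, counted from the start. These were the 2 of the 10 genes with that consensus, which 7.25% of 32841 stretches of the same length in the table held. Fasl held the NFAT core at −226 to −222 and at −30 to −26, and Ifng held it at −172 to −168. That core was in all 10 stretches and in 55.6% of all. The letters TATAAA stood at −30 to −25 in Ifng, −31 to −26 in Il2, −29 to −24 in Tnf and −167 to −162 in Lta (4 of 10, against 12.4% of all). The STAT letters stood in Ifng, Lta and Ltb (3 of 10, against 7.02%). The AP-1 and MAF letters were in none of the 10 stretches and in 6.75% and 3.81% of all. A match is a stretch of letters, and binding was not measured.

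Csf1 was 9.73, 9.65, 9.66 and 9.79 in isotype replicates 1 to 4. It was 10.59, 10.48, 10.61 and 10.74 in anti-IL-10R replicates 1 to 4. The lowest treated array thus lay 0.69 above the highest control array, a gap several times the SD within either group (0.07 and 0.11, n = 4 each). The difference of 0.90 ± 0.10 (SE) is a 1.87-fold rise (95% CI 1.59 to 2.19, limma adjusted p = 0.0166). By p-value Csf1 ranked 6 of the 22180 genes, and by the size of its rise 89. The difference stayed between 0.85 and 0.94 in all 17 alternative fits. Its adjusted p rose above the threshold in 6 of them: with the B cell marker covariate (0.141), with the replicate number as a block (0.0778), without isotype replicate 4 (0.0583) and without anti-IL-10R replicates 1 (0.0539), 3 (0.07) and 4 (0.0521), and was 0.0065 without isotype replicate 1.

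Csf2, which encodes GM-CSF, the other colony stimulating factor in the set, was dim. It was 4.56 in isotype replicate 1 and 3.75 to 4.05 in the other isotype arrays, against 3.88 to 4.04 in the anti-IL-10R arrays. The treated arrays therefore lay inside the control range. Its difference was −0.11 ± 0.16, and 0.05 without isotype replicate 1, so its sign rested on that array. The second Csf2 row, dimmer still with a mean of 3.42, differed by −0.19.

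Of the death ligands, Fasl, which encodes FAS ligand, was 10.13, 10.11, 10.14 and 10.04 in the isotype arrays. It was 10.46, 10.53, 10.58 and 10.45 in the anti-IL-10R arrays. The isotype arrays spanned 0.10 units and the anti-IL-10R arrays 0.14, and 0.31 units separated them. The difference was 0.40 ± 0.10 (SE), or 1.32-fold (95% CI 1.14 to 1.53, limma adjusted p = 0.0934). It passed without isotype replicate 1 (adjusted p = 0.0438, difference 0.41), where 3.47% of all genes passed (1.26% as higher), and its difference stayed between 0.34 and 0.42 in the 17 alternative fits.

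Tnfsf10, which encodes TRAIL, was 7.80, 7.64, 8.10 and 7.84 in the isotype and 7.62, 7.86, 7.51 and 7.51 in the anti-IL-10R arrays. The groups overlapped, with anti-IL-10R replicate 2 above 3 of the 4 control arrays. The difference was −0.22 ± 0.13 (95% CI −0.51 to 0.08, adjusted p = 0.513). Whether the change of Tnfsf10 differed from that of Fasl was not tested.

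Ltb and Lta encode the chains of the surface lymphotoxin, and Tnf lies between them: RefSeq (GRCm38.p6) places Ltb, Tnf and Lta close together on chromosome 17, with Tnf next to Lta. Ltb was 9.53, 10.23, 9.97 and 10.19 in the isotype arrays. It was 10.41, 10.89, 10.58 and 10.46 in the anti-IL-10R arrays, all above the controls by at least 0.18. The difference was 0.60 ± 0.18 (SE), or 1.52-fold (95% CI 1.16 to 1.99, limma adjusted p = 0.145). Isotype replicate 1 was the lowest array, and without it the difference was 0.45 (adjusted p = 0.102). B cells transcribe Ltb too. Of 12 B cell marker genes measured, 4 were not dim and 11 had lower means after blockade, beside 11871 of all 22180 genes. None of the 12 passed or had an unadjusted p below 0.05. The mean of the list ranged from 4.83 to 5.42 over the isotype arrays and from 4.82 to 5.01 over those of anti-IL-10R. With that mean as a covariate the Ltb difference was 0.54 (adjusted p = 0.434).

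Lta was dim, at 4.78, 4.93, 4.74 and 4.66 in the isotype and 4.51, 4.80, 4.70 and 4.78 in the anti-IL-10R arrays, with a difference of −0.08 ± 0.11. Tnf lay just above the limit for dim genes, at 5.46, 5.13, 5.39 and 5.29 in the isotype arrays. In the anti-IL-10R arrays Tnf was 4.87, 5.89, 4.91 and 5.16. Anti-IL-10R replicate 2 was thus the highest and replicate 1 the lowest of all 8 arrays. The Tnf difference of −0.11 ± 0.21 had a 95% CI from −0.58 to 0.36 (adjusted p = 0.855), and was 0.0024 when anti-IL-10R replicate 1 was left out, −0.34 when replicate 2 of that group was and −0.06 without isotype replicate 1. Of these 3 neighbouring genes, the groups were apart for Ltb and overlapped for Tnf and Lta; whether their differences are unequal was not tested.

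Ifng, the signature cytokine of effector CD8 T cells, was bright on every array. It was 10.01, 10.32, 10.33 and 10.21 in the isotype and 9.84, 10.22, 10.02 and 9.73 in the anti-IL-10R arrays. The anti-IL-10R mean was the lower one, but replicates 2 and 3 of that group lay above isotype replicate 1. The difference was −0.26 ± 0.14 (SE, 95% CI −0.57 to 0.04, adjusted p = 0.425). It was −0.33 without isotype replicate 1 (adjusted p = 0.199), and lay between −0.35 and −0.19 in the 17 alternative fits. The interval for the ratio runs from 0.674 to 1.03, so a rise of the size seen for Csf1 or Fasl lies outside it.

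Il2, a T cell growth factor, was dim on all 8 arrays, between 2.75 and 3.06. Its groups overlapped, with a difference of −0.12 ± 0.10 (SE, adjusted p = 0.657). Il21, a cytokine that supports B cells and CD8 T cells, was 6.83, 7.09, 6.50 and 7.14 in the isotype and 6.30, 7.65, 7.18 and 5.70 in the anti-IL-10R arrays. The anti-IL-10R arrays held both the highest and the lowest value, and their SD was 0.88 against 0.29 in the controls. The Il21 difference of −0.18 ± 0.37 had the widest interval of the 10 genes (95% CI −0.99 to 0.63). It was 0.16 when anti-IL-10R replicate 4 was left out and −0.50 when replicate 2 of that group was.

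**Figure D2:**
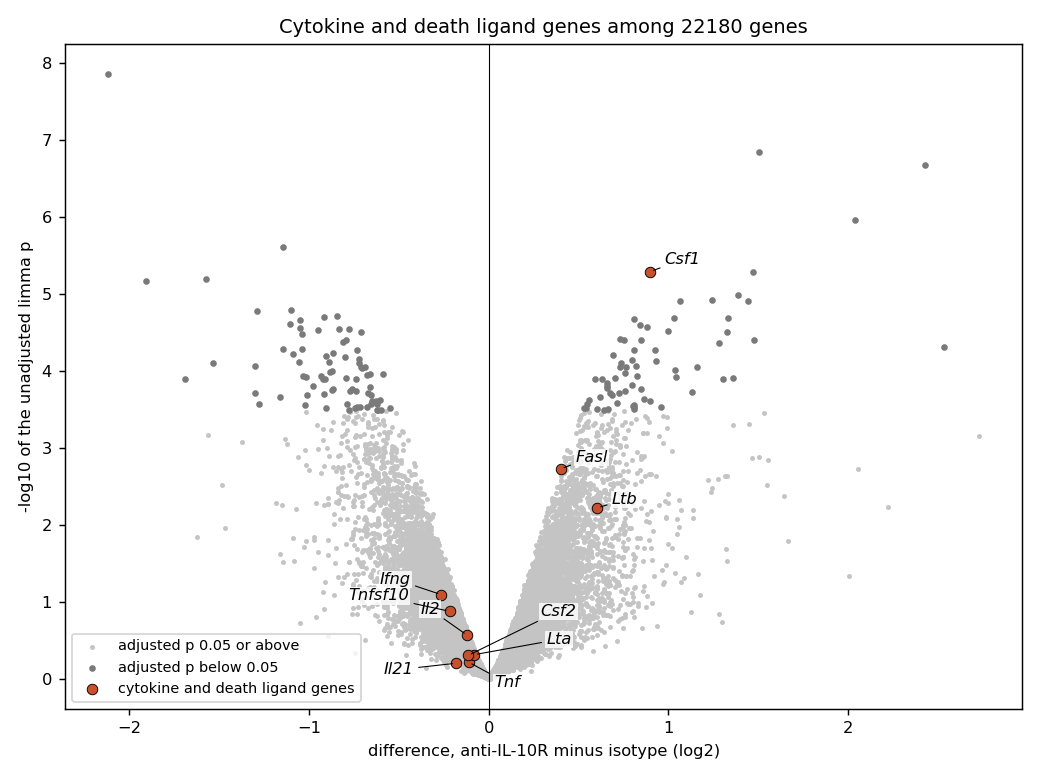
Each dot is a gene, with its difference (anti-IL-10R minus isotype, log2) on the horizontal axis and −log10 of its unadjusted limma p on the vertical axis; dark grey dots passed the threshold. Csf1, at 0.90, lies among the genes that passed; Fasl and Ltb lie to the right below them, and the other 7 genes lie left of 0 at the base.

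The receptors of these ligands are needed for T cells to sense them. No receptor chain of the 14 measured passed the limma threshold (2 were below 0.05 by the unadjusted p, as were 14.1% of all genes and 20.5% of those not dim), and 10 of them had a positive difference, with a median of 0.12. The TNF receptor chain Tnfrsf1b, which encodes TNFR2, came nearest. It was 10.18, 10.22, 10.38 and 10.35 in the isotype and 10.56, 10.70, 11.05 and 11.02 in the anti-IL-10R arrays, so its groups did not overlap (difference 0.55 ± 0.14 SE, limma adjusted p = 0.0967). Tnfrsf1a, which encodes TNFR1, differed by 0.35 ± 0.17 and Tnfrsf14, a receptor for LIGHT and lymphotoxin alpha, by 0.24 ± 0.13, each with overlapping groups. Ltbr, the lymphotoxin beta receptor gene, differed by 0.05 ± 0.13 (−0.04 after quantile normalization).

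Il2rb, the beta chain of the IL-2 receptor, ranged from 12.48 to 12.72 over the isotype arrays and from 12.80 to 12.90 over those of anti-IL-10R (difference 0.26 ± 0.10, adjusted p = 0.293). Il2ra, its high-affinity alpha chain, differed by −0.30 ± 0.17 and Il21r by 0.08 ± 0.10. The interferon gamma receptor chains Ifngr1 and Ifngr2 differed by 0.11 ± 0.18 and 0.14 ± 0.13 (−0.04 and 0.03 without isotype replicate 1). Of the death receptors, Fas differed by −0.26 ± 0.24 and Tnfrsf10b, the mouse TRAIL receptor, by −0.14 ± 0.34 (0.05 without anti-IL-10R replicate 1). Csf1r, the M-CSF receptor and a macrophage gene, was dim in both groups (4.73 to 5.20) and differed by 0.17 ± 0.12. The GM-CSF receptor chains Csf2ra and Csf2rb differed by −0.07 ± 0.13 (0.03 without isotype replicate 3) and 0.35 ± 0.32 (0.17 without isotype replicate 1).

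**Figure D3:**
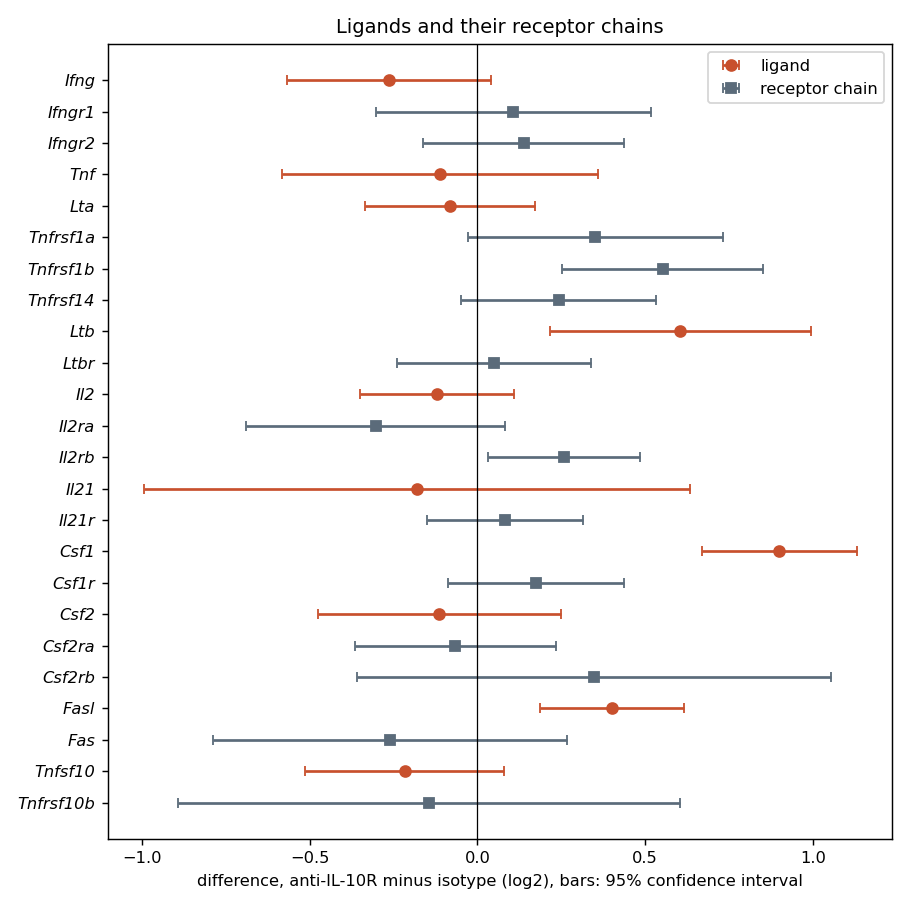
Difference (anti-IL-10R minus isotype, log2) of each ligand (orange circles) and receptor chain (grey squares), with its 95% confidence interval from the limma fit. Of the ligands, the intervals of Csf1, Ltb and Fasl lie above 0, and of the receptor chains those of Tnfrsf1b and Il2rb, which did not pass after adjustment.

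Transcription factors that act on these genes in T cells were measured for 26 of 28 listed. None passed over all genes (11 at an unadjusted p below 0.05, of which 9 higher, beside 14.1% of all genes and 20.5% of those not dim), 18 had a positive difference, and the median was 0.11 (0.04 without isotype replicate 1, 0.07 without anti-IL-10R replicate 3 and 0.19 without isotype replicate 4). Maf, an activator of Il10 transcription, had the largest difference, 1.45 ± 0.29 (SE), from 8.08 ± 0.68 (SD, n = 4) to 9.53 ± 0.22, with an adjusted p of 0.0559. Stat4, which carries the IL-12 signal to Ifng, differed by 0.51 ± 0.11 (adjusted p = 0.0677). Without isotype replicate 1 Maf (1.12, adjusted p = 0.008) and Stat4 (0.53, adjusted p = 0.0299) passed. Maf passed in 7 of the 17 alternative fits and Stat4 in 5. With the mean of all rows of Maf in place of the brightest row, its difference was 1.01 (limma adjusted p = 0.0414). Irf1, an interferon-induced factor, differed by 0.45 ± 0.12 and Hlx, a cofactor of T-bet at Ifng, by −0.34 ± 0.11, both with groups that did not overlap.

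Factors that control the decay and stability of cytokine mRNA were measured for 12 of 14 listed, and none passed (6 at an unadjusted p below 0.05, of which 4 higher, beside the same shares). Their median difference was 0.16, and 0.01 without isotype replicate 1. Zfp36l2, which binds AU-rich elements of cytokine mRNA, differed by 0.72 ± 0.18 (SE) and Rc3h2, a Roquin protein gene, by 0.58 ± 0.14, both with groups that did not overlap. Zc3h12a, which encodes the nuclease Regnase-1, differed by 0.37 ± 0.13. Khsrp, another decay factor, differed by −0.49 ± 0.16, and passed without isotype replicate 1 (−0.60, adjusted p = 0.0469).

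Genes that respond to these cytokines or carry their death signal were taken from 3 lists. Of 22 interferon gamma target genes measured, 1 rose, where 0.302% of all genes did. By the unadjusted p 9 were below 0.05, all higher. In either direction 14.1% of all genes and 20.5% of those not dim were, and higher alone 1604 of 22180 and 1412 of 12019. The list had a median of 0.22 (0.10 without isotype replicate 1). The gene that rose was Nlrc5, which activates MHC class I transcription, with a difference of 0.56 ± 0.10 (SE, limma adjusted p = 0.0467); it missed the threshold after centring (0.0618), with the replicate number as a block (0.151), with the B cell marker covariate (0.141) and in each fit without 1 array other than isotype replicate 1 (0.0901 to 0.169). Icam1, an adhesion molecule, differed by 0.63 ± 0.15 and Gbp4, a guanylate-binding protein gene, by 0.50 ± 0.13, with Irf1 the fourth by p. The difference of Ifng itself, from the same arrays, was −0.26. Of 18 NF-kappaB target genes none passed, with a median of 0.15 (0.11 without isotype replicate 1). At an unadjusted p below 0.05 were 5, or 27.8%, all higher, beside the same shares. After Icam1, the smallest p in that list belonged to Ier3 (0.61 ± 0.16), Traf1, a TNF receptor adaptor gene (0.58 ± 0.16), and Tnfaip3, which encodes the NF-kappaB inhibitor A20 (0.42 ± 0.16), each with groups that did not overlap.

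Of 16 death signalling genes measured none passed, and the median was 0.22, or 0.04 without isotype replicate 1. At an unadjusted p below 0.05 were 3, or 18.8%, all higher. In either direction 14.1% of all genes and 20.5% of those not dim were, and higher alone 1604 of 22180 and 1412 of 12019. Of the 16 genes, 11 had a positive difference and 5 a negative one. The 4 with the smallest p follow, of which Xiap had an unadjusted limma p of 0.0549. Cflar, which encodes the caspase 8 inhibitor cFLIP, differed by 0.37 ± 0.14 (SE) and Cyld, a deubiquitinase, by 0.25 ± 0.10. Birc2 and Xiap, inhibitor of apoptosis genes, differed by 0.67 ± 0.28 and 0.40 ± 0.18, and by 0.34 and 0.20 without isotype replicate 1. Over the 125 genes of all these lists and of the other T cell cytokines described next, 26 had groups apart upward. Of all genes 5.67% were, and of those not dim 9.32%. Downward, 4 of the 125 were apart, beside 4.65% and 5.99%.

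Other cytokines and TNF family ligands of T cells had a median difference of 0.01 over 21 genes, and none passed. At an unadjusted p below 0.05 were 4, 2 in each direction, or 19.0%, near the 14.1% of all genes and 20.5% of those not dim. Tnfsf4, which encodes OX40 ligand, differed by 0.64 ± 0.24 (SE), and by 0.39 without isotype replicate 1. Il10 differed by 0.76 ± 0.28 with overlapping groups. Tnfsf14, the LIGHT gene, was dim and lower in every anti-IL-10R array (−0.47 ± 0.15, adjusted p = 0.19), and Cd70, the ligand of CD27, differed by −0.36 ± 0.16. For the treatment target, Il10ra differed by 0.51 ± 0.13 (adjusted p = 0.0977) and Il10rb by 0.07 ± 0.14.

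**Figure D4:**
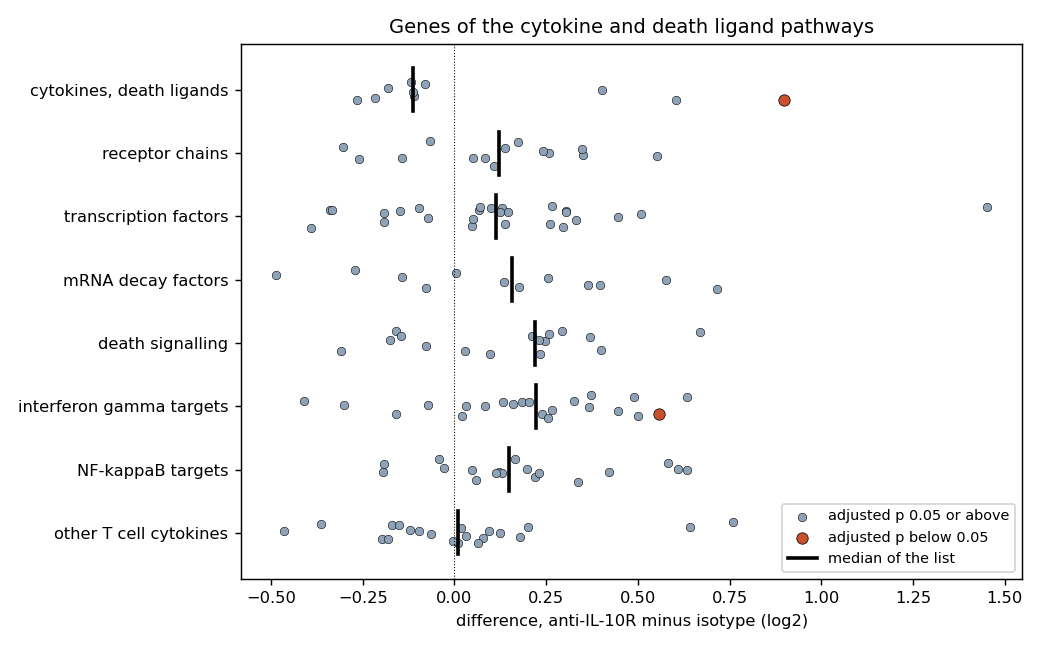
Difference (anti-IL-10R minus isotype, log2) of every measured gene in the set and in each pathway list; black bars are list medians and orange dots genes past the threshold. Csf1 and Nlrc5 are the 2 genes that passed; the point at 1.45 is Maf.

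The genes with the most similar profile over the 8 arrays were found by the root-mean-square distance between log2 profiles, each centred on its own mean, among 11007 named genes that were not dim. Nearest to Fasl were Camta2 (distance 0.05), Ttc17 (0.06) and Pla2g6 (0.06), beside a median distance of 0.30 over the genes compared. Their differences, held near that of Fasl by this choice, were 0.33, 0.37 and 0.40. Nearest to Ifng were Krtcap2, Glul and Nom1 (0.07 each, differences −0.20, −0.27 and −0.32). Nearest to Tnf were Trib1 (0.13), Phactr2 (0.14) and Sag (0.16), beside a median of 0.40. Like Tnf they were highest in anti-IL-10R replicate 2, which this choice favours.

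**Figure D5:**
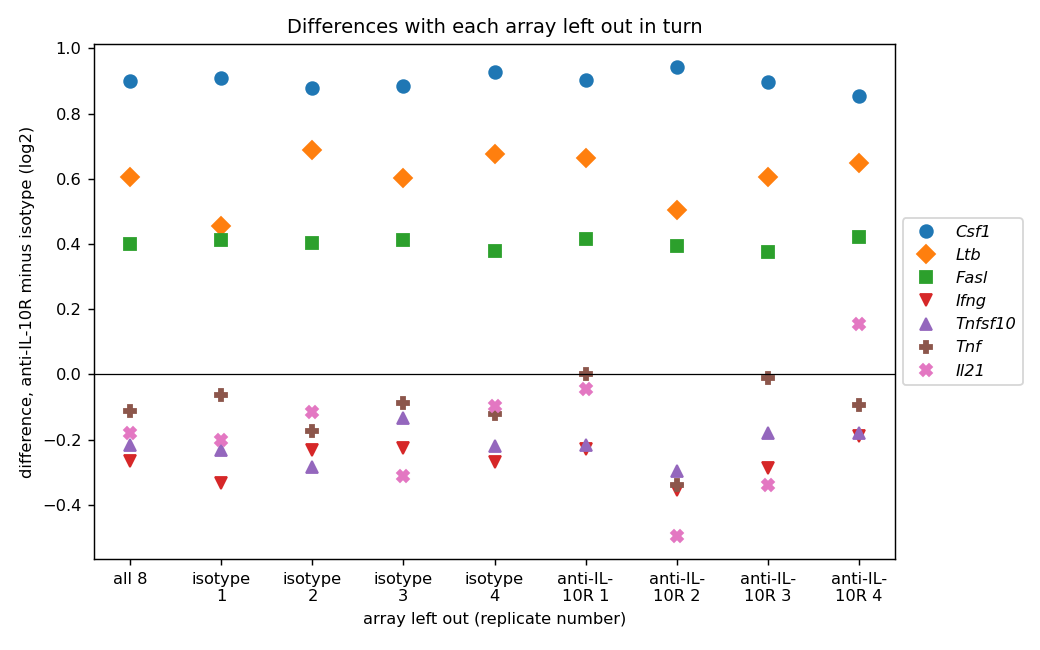
Difference (anti-IL-10R minus isotype, log2) of 7 of the genes with all 8 arrays and with each array left out in turn. Csf1 stays between 0.85 and 0.94 and Fasl between 0.37 and 0.42; Ltb falls to 0.45 without isotype replicate 1, and Tnf and Il21 cross 0.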

How the data were processed

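RNA of 8 sorted T cell samples was hybridised to GeneChip Mouse Gene 2.0 ST arrays after WT Pico labelling, with a single sample on each array (per the labels' protocols). The authors deposited 1 log2 value per transcript cluster and array. The submitters' processing notes name Affymetrix Power Tools; its version and settings are not stated there, and the log2 scale was read from the range, 1.57 to 13.89. Array medians were 5.19 to 5.31. Precision is limited by how many arrays there are.

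Of 41345 rows, 23521 had exactly 1 symbol in the platform annotation, 1814 several and 16010 none; the brightest row per gene gave 22180 genes. Of the 10 genes 7 were not dim. Dim genes were kept so that each of the 10 had a test. Differences were tested with limma 3.58.1 under R 4.3.3 (lmFit, then eBayes; two-sided, with Benjamini-Hochberg adjustment). On simulated data with the spread of these 22180 genes and independent noise on each array, 68% of genes changed 2-fold were called. Of all genes called there, 6.86% had not been changed. Changes below 2-fold, the size of every difference among the 10 genes, were not simulated.

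The genes, lists and tests were chosen with earlier results of these data known; the motifs were chosen after the values were seen. Named were all 10 genes, all receptor chains, the sort and target genes, the 4 genes with the smallest p in each other list and the 3 nearest profiles of Ifng, Tnf and Fasl. Matching by symbol left 26 list entries not analysed here. Alternatives were 2 filters on dim genes, quantile normalization, centring, the mean of a gene's rows, a trended robust variance model, array weights, a covariate for the mean of the B cell markers, a block for the replicate number and fits that each leave out 1 array.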

Additional observations from a re-analysis of the deposited data

Results flagged for a closer look

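In each group of 4 arrays of the 63 named genes, an array far from the other 3 was looked for by Dixon's criterion. It marked 9 of 126 groups, where chance marks about 1 in 20, and none of the 20 groups of the cytokine and death ligand genes. Isotype replicate 1 was low for Pdcd1 (10.34, others 11.10 to 11.20), Cd44 (6.05, others 6.56 to 6.58) and Tnfrsf10b (5.35, others 6.40 to 6.56). Isotype replicate 4 was high for Il10ra (9.997, others 9.88 to 9.90). Anti-IL-10R replicate 2 was high for Birc2 (9.35, others 9.14 to 9.16) and Sag (6.19, others 5.54 to 5.57) and low for Cd3e (12.57, others 12.60 to 12.61). Anti-IL-10R replicate 4 was low for Zc3h12a (6.85, others 7.19 to 7.26) and high for Il7r (4.34, others 3.27 to 3.41).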

How the results depend on the processing

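Directions of Csf1, Fasl, Ltb, Ifng and Tnfsf10 held in all 17 alternatives, and those of Il2 and Lta in the 15 that tested them. The filters gave 304 of the 12019 genes and 460 of the 6636 genes that they kept. Over all 22180 genes the main count was 145. That count was 453 after quantile normalization, 96 after centring, 232 with the trended robust model and 923 with array weights. With the B cell marker covariate it was 3, and with 1 array left out it was 5 to 769. Csf1 and Fasl were the 2 that passed with the stricter filter, which kept 5 of the 10 genes. The same 2 of 10 passed with the trended robust model and with array weights. With the B cell marker covariate 0 of the 10 passed (Csf1 limma adjusted p = 0.141, difference 0.92), and with 1 array left out 0 to 2. Of the pathway list genes, 3 of 107 and 6 of 82 passed with the filters. Of all 125, 2 passed after quantile normalization and with the mean of rows, and 0 after centring and with the covariate. With the trended robust model 3 passed, with array weights 6, and with 1 array left out 0 to 4. The causes were not tested. Signs turned for the genes that follow. With the covariate Tnf was 0.010, Csf2ra 0.095, Tnfrsf10b 0.00048 and Il7r −0.018; Ifngr1 was −0.013 with array weights, Ltbr −0.043 after quantile normalization and Il7r −0.013 after centring. With 1 array left out the ranges were −0.22 to 0.046 for Csf2, −0.15 to 0.027 for Csf2ra, −0.037 to 0.22 for Ifngr1, −0.50 to 0.16 for Il21, −0.22 to 0.33 for Il7r, −0.023 to 0.13 for Ltbr, −0.24 to 0.021 for Phactr2, −0.34 to 0.0024 for Tnf, −0.42 to 0.051 for Tnfrsf10b, −0.30 to 0.035 for Trib1.

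The labels number the arrays 1 to 4 in each group, and same-numbered arrays here share this replicate number. The array titles carry another number. It is the same in both groups at every replicate number except 1, where the isotype and anti-IL-10R titles differ. The deviations of same-numbered arrays from their group means correlated at −0.05, 0.12, 0.02 and −0.16 across genes. For arrays with unlike replicate numbers the same correlation ran from −0.15 to 0.18. These values cannot tell whether same-numbered arrays were paired. With the replicate number as a block, 6 genes passed in all, 0 of the 10 (Csf1 adjusted p = 0.0778, difference 0.90) and 0 of the list genes. That block also joined the replicate 1 arrays, whose title numbers differ. Pairing by title number was not tested.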

Other observations

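Markers of other cell types were read per array as the mean of each list. CD4 and regulatory T cell markers ranged from 5.58 to 6.10 over the isotype arrays and from 5.31 to 5.78 over those of anti-IL-10R, and within them Foxp3 was 7.97 in isotype replicate 1 and 5.08 to 5.95 in the other 7 arrays. NK cell markers lay at 4.45 to 4.93 and 4.54 to 4.65, myeloid markers at 4.89 to 5.41 and 4.88 to 5.05, and neutrophil markers at 4.19 to 4.67 and 4.25 to 4.30. Isotype replicate 1 was the highest array in these 3 lists, in the CD4 and regulatory T cell list and in the erythroid list. Dendritic cell markers lay at 5.73 to 5.93 and 5.65 to 5.76, erythroid markers at 4.37 to 4.87 and 4.35 to 4.65, platelet markers at 5.28 to 5.43 and 5.16 to 5.47, and gamma delta and NKT cell markers at 4.99 to 5.32 and 4.97 to 5.40. No gene of these lists passed the limma threshold over all genes; at an unadjusted p below 0.05 there were 2 dendritic cell markers, 1 in each direction, and 1 neutrophil marker, lower.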
